A study of Homo sapiens with 6 samples.

Results

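Glutathione transferases were followed here across the 786-O copper experiment as a set of 10 genes: 3 of the microsomal type (MGST1, MGST2 and MGST3) and 7 of the soluble type (GSTP1, GSTM2, GSTM3, GSTM4, GSTO1, GSTK1 and GSTA4). The members were taken by gene symbol, and 10 of 10 were found among the 25992 genes of the count table. 786-O is a human cell line, established from a clear cell renal carcinoma, in which the VHL tumour suppressor is not functional. Copper-adapted cells were grown in medium whose serum had been preloaded with copper sulfate, with 30 uM copper named for the series and 30, 31 and 32 uM on the labels of copper replicates 1, 2 and 3. Control cells received serum handled alike without copper. Both groups are wild type per the labels, come from this single line, and were grown in DMEM/F12 with serum. Each had 3 RNA-seq libraries. Library descriptions carry distinct numbers (6, 7 and 9 for copper, 1, 2 and 4 for control), but the labels do not say whether these mark separate cultures, so p-values measure the spread between these samples, which may be technical.

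Glutathione transferases join the tripeptide glutathione to reactive, electrophilic molecules, which makes these more water soluble and ready for export. The soluble enzymes work as dimers and fall into classes such as Pi, Mu, Omega and Alpha. The Kappa enzyme is related by function and sits in mitochondria and peroxisomes, while the microsomal enzymes are small membrane proteins of the MAPEG family. Several also reduce lipid hydroperoxides, and the family is known in kidney and in tumours for detoxification and drug resistance. Many members in mammals are targets of NRF2, a transcription factor that binds antioxidant response elements when cells meet electrophiles or oxidants.

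The Mu genes lie side by side on chromosome 1 and are so alike that a count for 1 of them can hold reads of another. The following stretches of coding sequence, from GENCODE 29 transcripts, show this. They run 5′ to 3′ over the 90 bases where GSTM4 and GSTM2 are most alike, and capitals mark bases that differ from GSTM4.
GSTM4: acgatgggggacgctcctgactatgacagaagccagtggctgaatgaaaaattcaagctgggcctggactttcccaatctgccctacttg
GSTM2: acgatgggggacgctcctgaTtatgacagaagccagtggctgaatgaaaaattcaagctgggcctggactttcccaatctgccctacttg
GSTM3: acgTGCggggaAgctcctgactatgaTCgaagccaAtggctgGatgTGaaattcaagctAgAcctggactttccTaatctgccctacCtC
In this window GSTM2 differs from GSTM4 at 1 base and GSTM3 at 15. Over the whole coding sequence GSTM2 and GSTM4 are 89.1% identical, with an identical run of 78 bases. GSTM3 is 74.9% identical to GSTM4 and 72.3% to GSTM2, with identical runs of at most 23 bases.

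Of the 50-base stretches in the main transcript of GSTM2, 74.5% also occur in a transcript of another gene, most often GSTM1. The share was 18.6% for GSTM4, 3.36% for GSTO1, where the sharing gene was the pseudogene GSTO3P, and 1.45% for GSTM3. It was 0% for MGST1, MGST2, MGST3, GSTP1, GSTK1 and GSTA4, which by this measure have no look-alikes among annotated transcripts. How the authors treated reads that match several genes is not given in the sources used here, so the split of counts between GSTM2 and GSTM4 is uncertain. In the deposited coordinates 0 of the 10 members overlap another gene of the table.

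Libraries held 16301772 to 25079913 counts, and 12944 genes passed the filter on low counts and were tested. Values below are CPM, counts scaled to a fixed library size with edgeR's TMM factors. Replicate 3 of both groups stood apart from replicates 1 and 2: within copper, chi-square per degree of freedom was 57.8 and 61.1 against replicate 3 but 5.55 between replicates 1 and 2, and within control 20.6 and 19.8 against 5.04. Renal carcinoma markers (10 of 10 tested, among them PAX8, VIM and EPAS1) summed to between 6700 and 8130 CPM in the copper libraries and between 7200 and 7710 in the controls. Of 14 markers of leukocytes, endothelium, hepatocytes and muscle, 0 passed the filter, and the highest count in any library was 10.

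In 786-O cells the family was led by GSTP1, with MGST1 next and then GSTO1, GSTK1 and MGST3. To compare genes, CPM were divided by the length in kilobases of the main GENCODE 29 transcript. GSTP1, the Pi enzyme and a marker of many tumours, had a median of 266 CPM per kilobase over the 6 libraries (254 to 300). MGST1, the main microsomal enzyme, which also reduces lipid peroxides, had 184 (146 to 262). GSTO1, an Omega enzyme with thiol transfer activity, had 109 (93.2 to 167), GSTK1 77.0 (71.1 to 92.2) and MGST3 63.6 (56.8 to 91.0).

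A gap separated these 5 genes from the others. GSTM4 followed at a median of 12.8 CPM per kilobase (11.4 to 14.3), then GSTA4, which prefers the lipid peroxidation product 4-hydroxynonenal, at 4.13 (2.90 to 7.42), GSTM3 at 3.99 (3.25 to 4.88) and MGST2, which can make leukotriene C4, at 2.96 (1.76 to 3.72). GSTM2 was lowest at 0.475 (0.209 to 0.543). Among neighbours in this order, ranges did not overlap between GSTO1 and GSTK1, between MGST3 and GSTM4, between GSTM4 and GSTA4, and between MGST2 and GSTM2. The other neighbours overlapped. On the length of the main transcript, the order of group means was the same in copper and control. Medians over the 6 libraries were also ranked on the length of all annotated exons. The first 5 then kept their places and GSTM3 came sixth, before GSTM4 and GSTA4. On that length MGST1 and GSTO1 were level over the 6 libraries, with medians of 81.6 and 81.4 CPM per kilobase. Their group means on that length took opposite orders, with GSTO1 above MGST1 in control and MGST1 above GSTO1 in copper. The place of MGST1 above GSTO1 thus rests on the choice of length and, on the exon length, on the group.

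**Figure D1:**
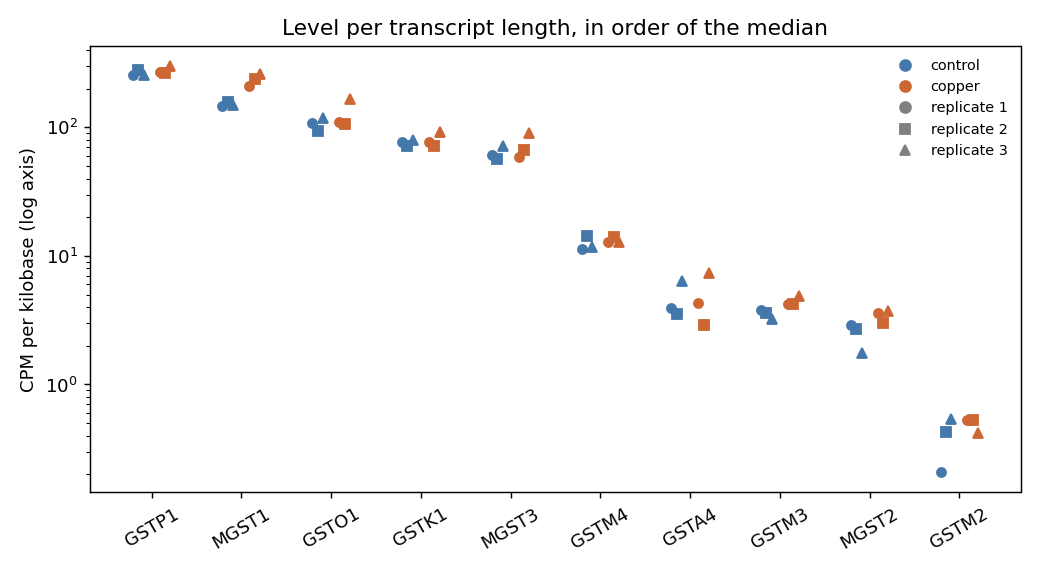
Level of each glutathione transferase gene in CPM per kilobase of its main transcript, on a log axis, in order of the median over 6 libraries. Points are single libraries, coloured by group and shaped by replicate; GSTP1 to MGST3 lie above 56 CPM per kilobase in all libraries and the other 5 genes below 15.

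MGST1 was the member that differed most between the groups, and the call depended on the tool and on the treatment of replicates. MGST1 (Entrez 4257; chromosome 12, 16347142 to 16364410) stood at 205, 233 and 256 CPM in copper replicates 1, 2 and 3 and at 143, 154 and 148 CPM in control. The lowest copper library lay above the highest control library, and copper replicate 3 was the highest. The means were 231 ± 25.4 and 148 ± 5.99 CPM (SD, n = 3). Copper was thus 1.56-fold higher, with a log2 fold change of 0.64 (SE 0.11). By edgeR's quasi-likelihood test this did not pass (adjusted p 0.359), and 0 of 12944 genes (0%) were called in that fit, where the smallest adjusted p was 0.0843 and 455 genes (3.52%) had an unadjusted p under 0.05.

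With the replicate number as a block, MGST1 was called higher in copper with an adjusted p of 0.0478, close to the threshold of 0.05. It was the 1 member of 10 called in that fit, which called 16 genes higher in copper (0.124% of those tested) and 6 lower. DESeq2 without the block also called MGST1 (adjusted p 0.000181) and none of the other 9, against 0.139% of all genes called higher. In replicates 1 and 2 alone edgeR's adjusted p for MGST1 was 0.00437, with a log2 fold change of 0.56 (SE 0.07), against 0.501% of all genes called higher in that fit. Without copper replicate 3 it was called as well, at 0.56 with an adjusted p of 0.0466, and in the other 5 fits without 1 library it was not.

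The difference in MGST1 did not rest on 1 replicate. Within replicates 1, 2 and 3 copper exceeded control by 0.53, 0.59 and 0.80 on the log2 scale. The ratio of MGST1 to GSTP1 CPM within a library, which no library scaling alters, was 0.799, 0.913 and 0.890 in copper and 0.583, 0.575 and 0.601 in control. MGST1 made up 27.1% to 29.9% of the summed CPM of the 10 members in copper libraries and 21.0% to 22.5% in control libraries. Among the 3 microsomal genes alone it took 72.5% to 76.6% in the copper libraries and 66.4% to 71.7% in the controls. In bulk RNA a change per cell and a change in the share of cells with the transcript cannot be told apart.

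The other microsomal genes were not called with or without the block. MGST2 (Entrez 4258; chromosome 4, 139665819 to 139704243) had 4.63, 3.87 and 4.75 CPM in copper and 3.70, 3.43 and 2.25 CPM in control. These groups did not overlap either, but the values rest on 43 to 92 counts per library, and control replicate 3 was the lowest. Its log2 fold change was 0.48 (SE 0.23), and it was 0.24 in replicates 1 and 2 alone. MGST3 (Entrez 4259; chromosome 1, 165631234 to 165656135), a microsomal enzyme with peroxidase activity, had 60.0, 67.3 and 92.4 CPM in copper and 61.9, 57.6 and 72.3 CPM in control. Its groups overlapped, replicate 3 was the highest of both, and the log2 fold change of 0.20 (SE 0.17) was -0.0058 without copper replicate 3.

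**Figure D2:**
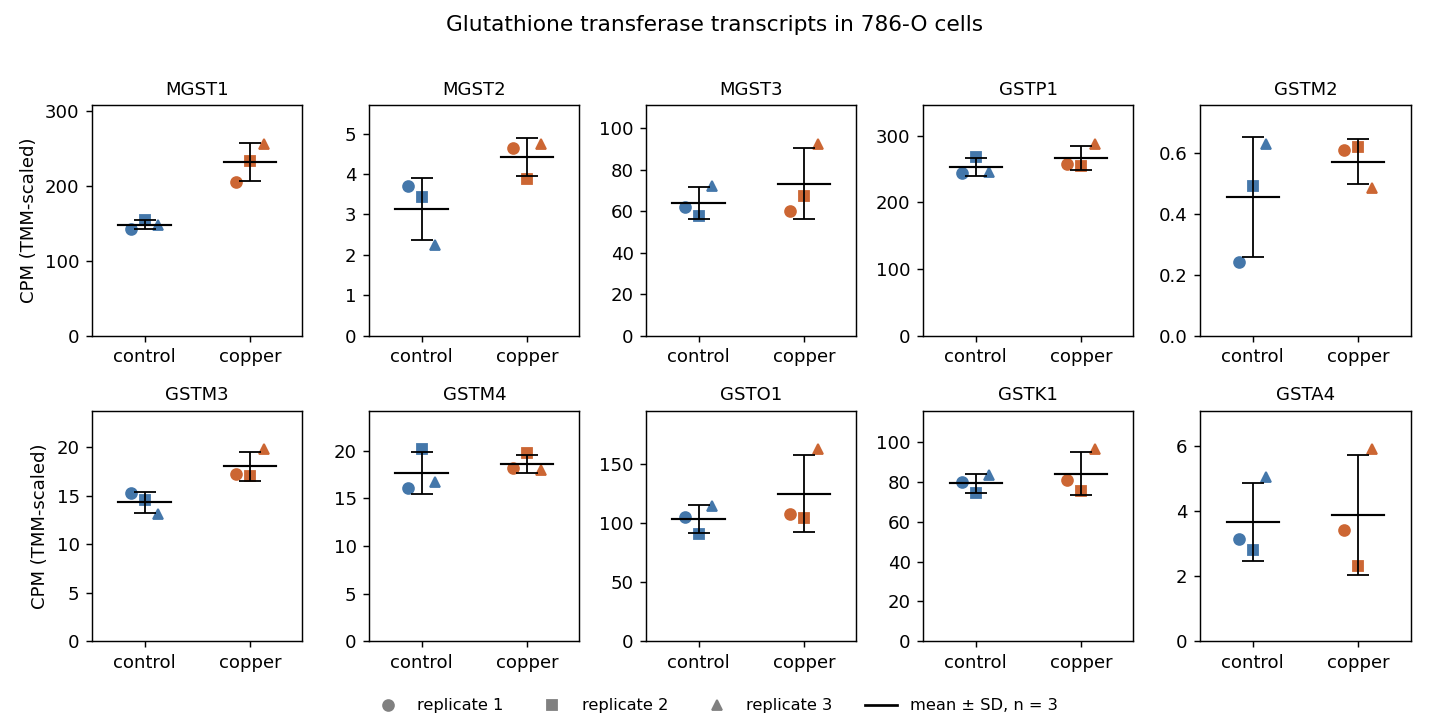
CPM of the 10 genes in each library, 1 panel per gene with its own axis from 0; points are libraries shaped by replicate, and lines with bars are mean ± SD (n = 3). Copper and control points are apart for MGST1, MGST2 and GSTM3, and overlap in the other 7 panels.

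GSTP1, the member with the highest level, overlapped between groups. GSTP1 (Entrez 2950; chromosome 11, 67583812 to 67586653) had 257, 255 and 288 CPM in copper and 244, 269 and 245 CPM in control. Control replicate 2 exceeded both copper replicates 1 and 2. The log2 fold change was 0.08 (SE 0.10), and it was -0.0039 in replicates 1 and 2 alone.

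Of the Mu genes, GSTM3 stood higher in copper without passing the test. GSTM3 (Entrez 2947; chromosome 1, 109733937 to 109741038) had 17.3, 16.99 and 19.7 CPM in copper and 15.3, 14.6 and 13.2 CPM in control, with no overlap. Its log2 fold change of 0.33 (SE 0.12) had an unadjusted p of 0.0272 by edgeR. After adjustment it was 1.00, and 0.518 in the blocked fit. GSTM4 (Entrez 2948; chromosome 1, 109656099 to 109665497) had 18.2, 19.7 and 18.0 CPM in copper and 16.1, 20.1 and 16.7 CPM in control, with the highest value in a control library and a log2 fold change of 0.08 (SE 0.12). GSTM2 (Entrez 2946; chromosome 1, 109668057 to 109675286) had 6 to 12 counts per library. At that depth its log2 fold change of 0.30 has an SE of 0.41, and a difference was not detectable.

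Reads exchanged among the look-alike Mu genes stay within their sum. Over GSTM1, GSTM2, GSTM4 and GSTM5, copper libraries held 19.3 ± 1.03 CPM and control libraries 18.1 ± 2.28 (SD, n = 3), with overlapping groups. GSTM1 itself had 0 or 1 count in each library, and GSTM5 had 0 to 3. The sum leaves out the pseudogene GSTM2P1, which shares 50-base stretches with GSTM2 and GSTM4, and any reads that were discarded for matching several genes.

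GSTO1 and GSTA4 were highest in replicate 3 of both groups. GSTO1 (Entrez 9446; chromosome 10, 104254194 to 104267464) had 108, 104 and 162 CPM in copper and 105, 90.6 and 114 CPM in control. Copper replicate 3 stood far above the other 5 libraries, which overlapped. Its log2 fold change was 0.27 (SE 0.19), and 0.0367 without copper replicate 3. GSTA4 (Entrez 2941; chromosome 6, 52977953 to 52995284) had 3.41, 2.30 and 5.88 CPM in copper and 3.14, 2.79 and 5.03 CPM in control. Replicate 3 exceeded the mean of replicates 1 and 2 by 1.04 in copper and 0.74 in control on the log2 scale, while the difference between groups was 0.08 (SE 0.38). That difference had no stable sign, running from -0.343 without copper replicate 3 to 0.371 in the fits without 1 library.

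GSTK1 (Entrez 373156; chromosome 7, 143263429 to 143269129), the Kappa enzyme, had 80.9, 75.3 and 96.3 CPM in copper and 80.0, 74.3 and 83.7 CPM in control. The groups overlapped, and its log2 fold change of 0.09 (SE 0.12) was -0.0225 without copper replicate 3. Its value in copper exceeded that in control by 0.02 in replicates 1 and 2 and by 0.20 in replicate 3.

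**Figure D3:**
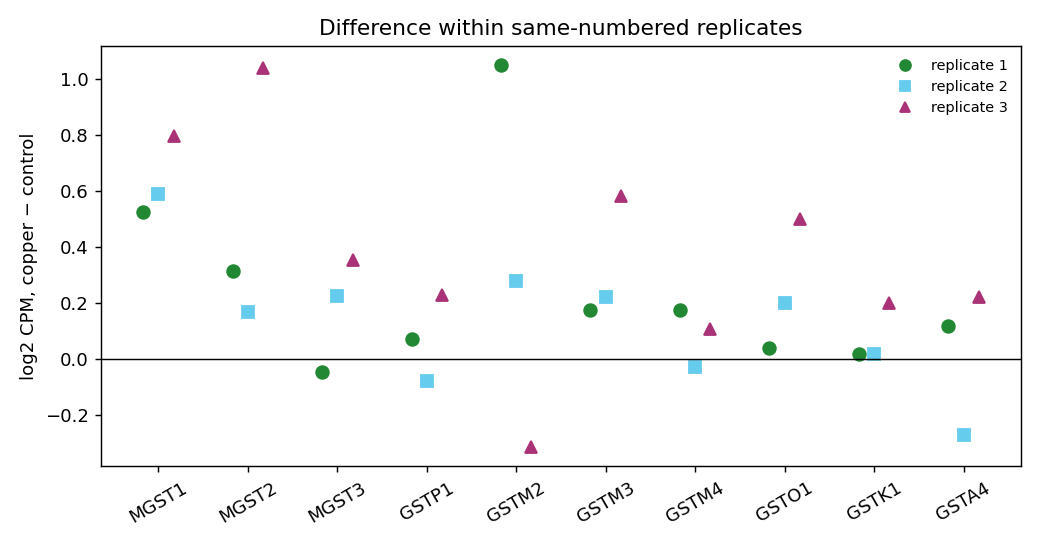
Difference in log2 CPM between copper and control within each replicate number, for the 10 genes; the horizontal line marks 0. MGST1 lies at 0.53 or above in all 3 replicates, while the replicate 3 point is the highest for 8 of the 10 genes.

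Across the family, 10 of 10 members had a log2 fold change above 0, against 51.4% of all genes tested. The count was 7 of 10 without copper replicate 3, 9 of 10 without control replicate 1 or control replicate 2, and 8 of 10 in replicates 1 and 2 alone. The median was 0.23, against 0.0051 over all genes. Groups did not overlap, with copper higher, for 3 members (MGST1, MGST2 and GSTM3), against 5.45% of all genes, and for 0 members with copper lower, against 5.35%. In 5 members (MGST1, MGST2, GSTM3, GSTO1 and GSTK1) copper was higher in all 3 replicates, against 17.7% of all genes. An unadjusted p under 0.05 by edgeR was reached by 2 members without the block, against 1.92% of all genes in that direction. With the block 4 members reached it (MGST1, MGST2, GSTM3 and GSTO1), against 4.16%. The members were chosen with earlier results of these data known, so these shares describe them and test nothing.

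Copper replicate 3 had a large part in these family values. It was the highest of the 6 libraries for 8 of 10 members, against 33.2% of all genes. The median member difference was 0.15, 0.18 and 0.29 in replicates 1, 2 and 3. It was 0.10 in replicates 1 and 2 alone and 0.0703 without copper replicate 3. The summed CPM of the 10 members was 754, 777 and 942 in copper and 671, 687 and 701 in control, a ratio of 1.12, 1.13 and 1.35 in replicates 1, 2 and 3. For the 7 soluble and Kappa genes that ratio was 1.05, 1.00 and 1.23, and for the 3 microsomal genes 1.30, 1.41 and 1.59. On the labels copper replicate 3 has 32 uM copper, against 30 and 31 uM for copper replicates 1 and 2. Any effect of that label cannot be told apart from the replicate. Control replicate 3, which also stood apart, has no such label. The part of replicate 3 in these values was not tested beyond the fits without it.

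Antioxidant response element cores were looked for in the RefSeq promoters (GRCh38.p14), which matched 9 of 10 members by symbol, since many genes of the family are known NRF2 targets. The core searched was TGACNNNGC on both strands, in windows from 250 bases before to 50 after each start site. It was found for 4 of the 9 genes, MGST1, GSTP1, GSTO1 and GSTA4, and in 16.1% of all genes (13.3% of all windows). The matches are shown with 30 bases each, 5′ to 3′ along the gene, with the core in capitals.
MGST1, chr12:16347135-16347164, plus strand: ggggacatcgTGACAAAGCaaattgtctgg
GSTP1, chr11:67583736-67583765, plus strand: gccggcgccgTGACTCAGCactggggcgga
GSTO1, chr10:104254656-104254685, plus strand: ggcggagggaTGACTGAGCatttataactt
GSTO1, chr10:104254721-104254750, plus strand: cgagatgcttTGACACAGCcccttaagatg
GSTA4, chr6:52995274-52995303, minus strand: ccgggaccgcTGACCTGGCgctttgtgcgg
The first base of the core lies 66 bases before the start site in GSTP1, 226 and 161 bases before it in GSTO1, and 9 before it in GSTA4. In MGST1 it lies 30 bases after the most upstream of 3 annotated start sites, and the windows of the other 2 held no match. The genes with a match included both MGST1, with the largest log2 fold change of the family, and GSTP1, at 0.08. The core of the metal response element, bound by the metal sensor MTF1, was searched on both strands as TGCACNC and TGCGCNC. The first form was found for 3 members (GSTP1, GSTM2 and GSTO1), against 14.4% of all genes, and the second for 2 (MGST1 and GSTK1), against 23.0%. A match describes letters and is no evidence of binding.

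The genes around the family were read from lists of related genes, chosen with earlier results of these data known. Of 18 tested genes of glutathione supply and recycling, edgeR called 0 with or without the block. A log2 fold change above 0 was found for 14, with a median of 0.19. The smallest p belonged to PGD, an NADPH-producing enzyme of the pentose phosphate pathway, at 192 ± 19.7 CPM in copper and 141 ± 12.04 in control (SD, n = 3). Its log2 fold change was 0.45 (SE 0.11), which edgeR did not call (adjusted p 1.00, and 0.121 in the blocked fit). It was called by edgeR with a term parting replicate 3 (adjusted p 0.041). DESeq2 called PGD with the replicate block (adjusted p 0.00767) and not without it (0.204). GCLM, the modifier subunit of the enzyme that limits glutathione synthesis, had 0.46 (SE 0.20), and GSR, which regenerates glutathione, 0.30 (SE 0.13). Neither of these was called in all 6 libraries.

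Without replicate 3 of both groups, 4 of the 18 tested genes of glutathione supply and recycling were called higher in copper. The share of all genes called higher in that fit was 0.501%. In replicates 1 and 2 alone, edgeR's adjusted p was 0.00437 for PGD, 0.00654 for GCLM, 0.0133 for TXNRD1, a thioredoxin reductase, and 0.0236 for SLC7A11, the cystine importer. Their log2 fold changes in that fit were 0.46, 0.63, 0.41 and 0.47. In replicate 3 copper exceeded control by 0.42 for PGD and by 0.0023 for GCLM, whereas the difference was -0.23 for TXNRD1 and -0.44 for SLC7A11. Replicate 3 thus followed replicates 1 and 2 in PGD and not in the other 3 genes.

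Genes that export or break down glutathione conjugates had a median close to that of all genes. Of 18 tested, 0 were called with or without the block, 10 had a log2 fold change above 0, and the median was 0.05. ABCC2, an export pump for glutathione conjugates, had the smallest p, at 3.59 ± 1.16 CPM in copper and 2.49 ± 0.168 in control, a log2 fold change of 0.52 (SE 0.27). ABCC1, the more abundant pump, was at 117 ± 15.6 and 120 ± 12.3 CPM (log2 fold change -0.0246). ABCC3, a related pump, was at 52.1 ± 12.1 and 39.6 ± 8.60 CPM, and copper exceeded control by 0.39, 0.36 and 0.42 in replicates 1, 2 and 3. It had the smallest p of the list in the blocked fit, where edgeR's adjusted p was 0.189. GGT1, which starts the breakdown of conjugates outside the cell, was at 1.16 ± 0.491 and 1.28 ± 0.637 CPM. The dipeptidases DPEP1, DPEP2 and DPEP3 and the acetyltransferases NAT8 and NAT8B were among 8 genes that did not pass the filter, with at most 4 counts in any library.

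**Figure D4:**
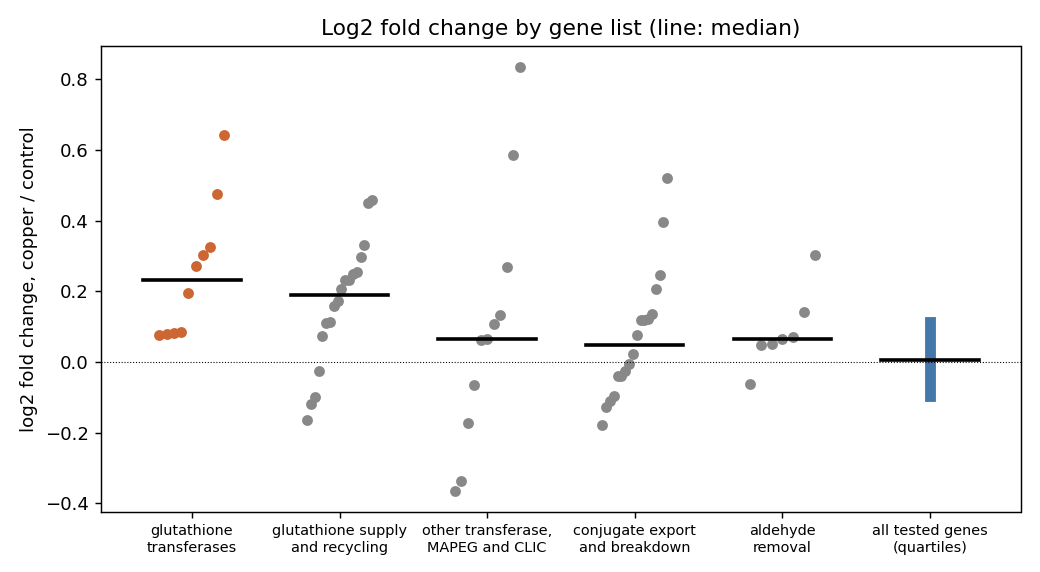
Log2 fold changes (copper over control, edgeR without the block) of the tested genes of each list, as points, with a line at each median; the bar at the right spans the quartiles of all tested genes. The medians are 0.23 for the glutathione transferases and 0.19 for glutathione supply, against 0.0051 for all genes.

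The transcripts of NRF2 itself and of its inhibitor did not differ beyond their spread. NFE2L2, which encodes NRF2, was at 196 ± 20.0 CPM in copper and 198 ± 14.1 in control, and KEAP1 at 83.7 ± 6.63 and 80.7 ± 6.99 CPM (SD, n = 3). NRF2 is controlled mainly through protein stability, which RNA counts do not measure.

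Among the 10290 other genes that averaged 5 CPM or more, the 5 whose log2 CPM followed MGST1 most closely over the 6 libraries were HTATIP2 (Pearson r 0.997), SLU7 (0.996), MT2A (0.993), TCEAL4 (0.993) and SUSD1 (0.990). These were picked as the highest among many and share the libraries, so the values describe likeness of pattern. The size of the pattern differed widely. MT2A, a metallothionein that binds copper and zinc, was at 719 ± 86.0 CPM in copper and 343 ± 12.8 in control, a log2 fold change of 1.07. SLU7, a splicing factor, was at 55.2 ± 0.357 and 54.1 ± 0.0344 CPM, a log2 fold change of 0.03.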

How the data were processed

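RNA of 6 libraries of 786-O cells, 3 copper and 3 control, was analysed from 1 table of raw counts per gene that the authors deposited. The submitters' processing notes name STAR, FastQC, edgeR and GRCh38; the counting program, its use of strand and its treatment of reads with several matches are not given in the sources used here. Groups and replicate numbers come from the sample titles. Symbols and positions are those of the table, with 1 added to starts. The 5 rows that carry no symbol held 0.000814% of the counts and were removed.

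The fit used edgeR 4.0.16 in R 4.3.3, with filterByExpr (minimum count 10, minimum total 15), TMM factors and the quasi-likelihood test in its robust form, in which copper was set against control. P-values were adjusted by Benjamini-Hochberg over 12944 genes, with 0.05 as threshold. A prior count of 2 entered the log2 fold changes. SE is the size of the log2 fold change given by the test itself, which does not use that prior count, divided by the root of F. Scripts were tested on simulated data.

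Both groups carry replicate numbers 1 to 3. Deviations of same-numbered libraries from their group means correlated across genes at 0.46, 0.40 and 0.65, above the 0.1 set for pairing, so the fit with the number as a block is given where it alters a call. Copper 1 with control 2 gave 0.317 and copper 2 with control 1 gave 0.272, which also lie above 0.1. Replicate 3 against the other numbers gave -0.557 to -0.449. The check thus holds the gap between replicate 3 and the rest. It cannot by itself show that numbers 1 and 2 mark pairs. Genes are not independent replicates. Alternatives were other scalings and filters, DESeq2 1.42.0, limma-voom (limma 3.58.1), the block, a term for replicate 3, replicates 1 and 2 alone, and each library left out.

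The members and lists were chosen with earlier results of these data known. Named were the 10 members, the gene with the smallest p of each list, genes called, and the 5 genes most like the member with the smallest p. GCLM, GSR, TXNRD1, SLC7A11, ABCC1, ABCC3, GGT1, PTGES, CLIC4, GSTZ1, GLO1 and the untested genes of a list were named after their values were seen. GSTT1 was not analysed here.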

Additional observations from a re-analysis of the deposited data

How the results depend on the processing

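Without the block, edgeR called 0 genes under the other scalings, the filter at a mean of 10 counts and limma-voom. DESeq2 called 27 genes, the replicate block 22 and edgeR with no filter 12. The count was 35 with a term parting replicate 3 and 111 in replicates 1 and 2 alone. The fits that each left out 1 library gave 0 to 15 genes, with 15 without copper replicate 3. Of the members, 1 (MGST1) was called with DESeq2, the replicate block, the term parting replicate 3, and replicates 1 and 2 alone, and 0 to 1 in the fits without 1 library. The block changed no other member's call. MGST1 was called under all 11 blocked settings tried, 10 of them chosen after seeing the data. Its log2 fold changes there were 0.56 to 0.69, and adjusted p ran from 3.13e-08 to 0.0478. With all 6 libraries and a filter on low counts, blocked edgeR and limma-voom gave 0.0379 to 0.0478, all close to the threshold. The lower values came from DESeq2, from no filter, and from fits that dropped a replicate number of both groups and so had few libraries. Under 16 settings without the block MGST1 was called in 4, with 0.56 to 0.72 and adjusted p from 0.000181 to 1.00.

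The median over the members was 0.103 in replicates 1 and 2 alone and 0.0703 to 0.296 in the fits without 1 library, lowest without copper replicate 3; without control replicate 1 it was 0.128. GSTP1 (-0.00393) and GSTA4 (-0.0649) changed sign in replicates 1 and 2 alone. Leaving out 1 library moved MGST3 between -0.00576 and 0.319, GSTK1 between -0.0225 and 0.156, and GSTA4 between -0.343 and 0.371. For MGST3 and GSTK1 copper replicate 3 was the library whose absence turned the sign. GSTA4 turned without copper replicate 3 (-0.343), control replicate 1 (-0.0171) or control replicate 2 (-0.0722). GSTM2 dropped out under the filter at a mean of 10 counts, since its mean was 9.67. No scaling put the median over all tested genes above 0.0323. The low counts of GSTM2, MGST2 and GSTA4 limit what can be detected for them.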

Other observations

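Beyond the 10 members, many genes of the wider transferase and MAPEG families had few or 0 counts in these cells. Of 26 listed genes in the table, 15 did not pass the filter, with at most 8 counts in any library. Among these were the Alpha genes GSTA1, GSTA2 and GSTA3, the Theta genes GSTT2 and GSTT2B, whose near-identical copies could share reads, and HPGDS, a prostaglandin D synthase. Of the 11 tested, 0 were called with or without the block, 7 had a log2 fold change above 0, and the median was 0.07. ALOX5AP, the MAPEG protein that presents arachidonic acid to 5-lipoxygenase, had the smallest p, at 1.74 ± 0.565 CPM in copper and 0.937 ± 0.165 in control (SD, n = 3). Its log2 fold change was 0.84 (SE 0.32) on 16 to 40 counts per library, and the groups overlapped. PTGES, a MAPEG enzyme that makes prostaglandin E2, was at 20.6 ± 10.4 and 26.6 ± 5.50 CPM. Its log2 difference, copper minus control, was -0.54 in replicate 1, -0.82 in replicate 2 and -0.0162 in replicate 3. In replicates 1 and 2 alone PTGES was called lower in copper by edgeR (log2 fold change -0.68, adjusted p 0.0103). That fit called 111 of 12966 genes in either direction. The blocked edgeR fit of all 6 libraries did not call PTGES (adjusted p 0.5). CLIC4, a chloride intracellular channel protein with a transferase-like fold, was the most abundant gene of the list at 861 ± 224 and 1088 ± 120 CPM, with overlapping groups. Within replicates 1, 2 and 3 its log2 difference, copper minus control, was -0.17, -0.258 and -0.675. The blocked edgeR fit did not call CLIC4 (adjusted p 0.423). GSTZ1, the Zeta enzyme of tyrosine breakdown, was at 12.2 ± 3.78 and 11.7 ± 2.50 CPM.

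Glutathione-dependent enzymes that clear aldehydes and ketoaldehydes showed 0 calls among 7 tested genes, with 6 log2 fold changes above 0 and a median of 0.07. GLO1, the glyoxalase that handles methylglyoxal, was at 228 ± 22.03 CPM in copper and 217 ± 19.6 in control. HAGH, the enzyme that follows it, had the smallest p of the list, with a log2 fold change of 0.14 (SE 0.11).

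Among the 15 genes that did not pass the filter was EEF1G, a translation elongation factor subunit with a transferase-like domain that is usually abundant in growing cells. It was listed with 0 counts in 5 libraries and 1 count in control replicate 3. It overlaps MIR6747 on the same strand in the deposited coordinates. The cause was not tested, and a low count in this table need not mean that a transcript is absent.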
